A study of Rattus norvegicus with 4 samples.

Results

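The genes described here are 32 transcripts of lymphocytes and of leukocytes in general, measured by microarray in rat pancreas under 3 levels of dietary iron. They form a list of cell type genes that was drawn up with earlier results of these data known: 15 are T-cell genes, 7 are B-cell genes and 10 are pan-leukocyte genes, out of 26524 gene names on the array. Each was found through the gene symbol of its probes, and 35 of the 30367 probes belong to them. Male Sprague-Dawley rats were fed for 3 weeks an iron-deficient (FeD, 5 ppm iron), iron-adequate (FeA, 35 ppm) or iron-overloaded (FeO, 20275 ppm) diet, and the study asked which pancreatic transcripts respond to low or high iron. Total RNA of 6 rats per diet was combined into 1 pool, so each diet is a single pooled sample with no measure of the variation between animals. FeA RNA was hybridized against FeD RNA, and separately against FeO RNA, on 2 two-colour Agilent arrays, with the Cy3 and Cy5 dyes exchanged between the arrays. The 2 arrays of a comparison therefore repeat the measurement of the same RNA and count as 1 replicate. An SD over 2 arrays given below is technical, and no p-value for the diets can be had.

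A T cell recognises antigen through a receptor whose signal is carried by the CD3 chains. LCK phosphorylates these chains, ZAP-70 docks on them, and the adaptor LAT passes the signal on. A B cell signals in a parallel way through CD79A and CD79B, which accompany its surface antibody. Pan-leukocyte genes such as Ptprc (CD45) and Coro1a serve membrane signalling and the actin cortex of nearly all white blood cells. The exocrine pancreas is built mainly of acinar cells, normally holds few lymphocytes, and has lymph nodes lying along it.

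On each array 42877 gene spots were read, and 61.9% to 71.5% of them were well above background in a given channel. All 16 acinar genes examined (digestive enzymes and their regulators) were well above background in at least 1 channel, as the labelled tissue requires. The T-cell costimulatory receptor gene Cd28 and the B-cell and plasma-cell surface enzyme gene Cd38 were not well above background in any channel of any pool. The other 30 members entered the FeD comparison, and 24 entered the FeO comparison. A probe entered where at least 1 of the pools compared, the same pool each time, cleared background on both arrays of the comparison. Values are log2 ratios of the diet pool over the FeA pool, averaged over the arrays. A gene is called higher or lower here where that mean passed 1.5-fold (0.58 on the log2 scale) with the same sign on both arrays.

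In FeD pancreas, 10 of the 30 members that entered were called higher than in FeA pancreas and none was called lower, where 1.08% of all 15739 genes that entered were called higher and 0.673% lower. The 10 were Cd3g, Zap70, Lat and Cd27 of the T-cell group, Cd79b of the B-cell group, and Coro1a, Ptprc, Ptprcap, Cd52 and Cd53 of the pan-leukocyte group. All 10 passed the background criterion in each pool on each array. At any size, 26 of the 30 were higher on both arrays and none was lower on both, where 25.2% of all genes were higher and 21.7% lower on both. The 26 include Cd2, Il7r, Ms4a1 and Cd37, which entered through the FeD pool alone, where they were higher, so the filter favoured that direction. The median log2 ratio was 0.48 over the 30 members and 0.01 over all genes, and it was 0.43 when the members that did not enter were included. Over the 24 members well above background in both pools the median was 0.56. In bulk RNA a larger number of lymphocytes and more of these RNAs per lymphocyte cannot be told apart, here or in the results that follow.

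In FeO pancreas, 7 of the 24 members that entered were called lower than in FeA pancreas and none was called higher, where 1.34% of all 16442 genes that entered were called lower and 2.39% higher. The 7 were Cd3g, Zap70, Cd27, Cd79b, Coro1a, Ptprcap and Cd53, each of them above the background criterion in every channel. At any size, 18 of the 24 were lower and 2 were higher on both arrays, where 24.1% of all genes were lower and 28.1% higher on both. The 18 include Cd3e, Cd5 and Cd8a, which entered through the FeA pool alone, where they were higher, so the filter favoured that direction. Rac2 is among the 18 with only -0.05 on array 1. The median was -0.43 over the 24 members and 0.01 over all genes, and it was -0.31 over all 32 members on the array. Over the 21 members well above background in both pools it was -0.43. Both comparisons use the same FeA pool, so a level in that pool enters both sets of ratios. The values for FeD and FeO are for that reason given side by side and are not related to each other by a test.

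**Figure D1:**
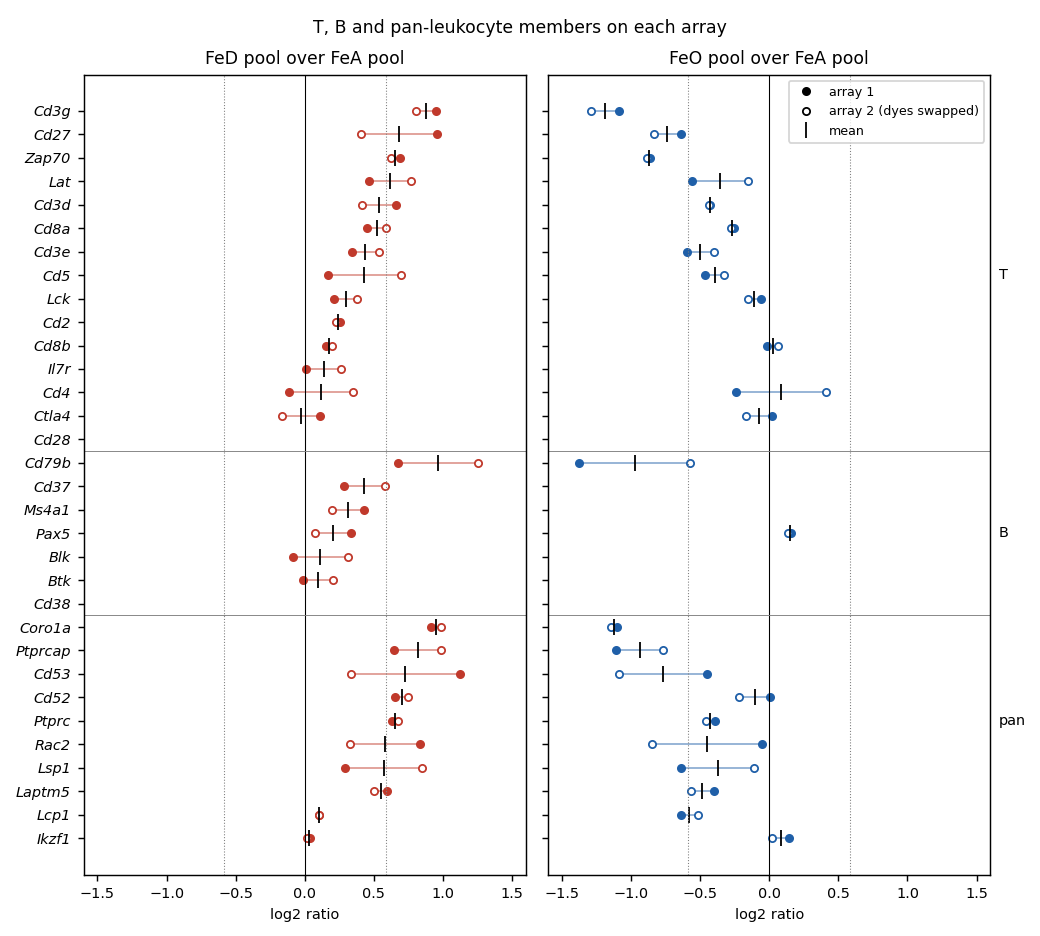
Log2 ratio of each member in the FeD pool (left) and the FeO pool (right) over the FeA pool, with filled circles for array 1, open circles for array 2 with exchanged dyes, a vertical bar for their mean, and dotted lines at 1.5-fold. Rows without points did not enter that comparison. Of the members shown, 26 of 30 lie right of zero on both arrays in FeD and 18 of 24 lie left of zero on both arrays in FeO. Among these, Cd2, Il7r, Ms4a1 and Cd37 in FeD entered through the brighter pool alone. The same holds for Cd3e, Cd5 and Cd8a in FeO.

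The CD3 chains were measured by 3 genes. Cd3g, which encodes CD3 gamma, had log2 channel levels of 9.97 and 9.84 in the FeD pool, 9.02 to 9.11 in the 4 FeA channels, and 7.97 and 7.82 in the FeO pool. The channels of the 3 pools did not overlap, and those of FeA lay within 0.1 of each other. Channels of a pool repeat the same RNA, and the share of all genes separated in this way is not given, here or below. The Cd3g ratio was 0.88 ± 0.10 (SD over 2 arrays) in FeD, a 1.84-fold higher level, and -1.18 ± 0.14 in FeO, a 2.27-fold lower level. Its probe has 10 spots per array, from which those marked as outliers were left out.

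Cd3d and Cd3e, for the delta and epsilon chains, differed from FeA in the same directions as Cd3g but stayed short of 1.5-fold. Cd3d had log2 channel levels of 10.52 and 10.17 in FeD, 9.76 to 10.19 in FeA, and 9.50 and 9.76 in FeO, so that the channels of FeA reached those of both other pools. Its ratios were 0.53 ± 0.17 in FeD and -0.43 ± 0.01 in FeO. The dimmer Cd3e had channel levels of 7.37 and 7.47 in FeD, 6.70 to 7.02 in FeA, and 6.34 and 6.31 in FeO, which did not overlap. Its ratios were 0.44 ± 0.13 in FeD and -0.50 ± 0.14 in FeO, where the FeO pool was well above background on 1 of the 2 arrays.

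The genes that carry the receptor signal inward were not uniform. Zap70, the kinase recruited to phosphorylated CD3, had channel levels of 8.87 and 8.82 in FeD, 8.11 to 8.31 in FeA, and 7.46 and 7.23 in FeO. These channels did not overlap, and the ratios were 0.66 ± 0.04 in FeD (1.58-fold higher) and -0.87 ± 0.02 in FeO (1.83-fold lower). Lat, the membrane adaptor phosphorylated by ZAP-70, had channel levels of 8.15 and 8.34 in FeD, 7.41 to 7.68 in FeA, and 6.89 and 7.25 in FeO. Its channels did not overlap between pools either. Lat was called higher in FeD, at 0.61 ± 0.21, whereas in FeO its ratio of -0.36 ± 0.29 did not reach 1.5-fold, with -0.56 on array 1 and -0.15 on array 2. Lck, the kinase that acts first in the cascade, had smaller ratios of 0.30 ± 0.12 in FeD and -0.11 ± 0.07 in FeO. The Lck channels spanned only 6.72 to 7.31 over all pools. They were 7.16 and 7.31 in FeD, 6.83 to 6.95 in FeA, and 6.77 and 6.72 in FeO, and did not overlap between pools either.

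Among coreceptors and surface molecules of T cells, Cd27 was called in both comparisons. Cd27, a costimulatory receptor that memory B cells also carry, had channel levels of 8.36 and 8.04 in FeD, 7.37 to 7.63 in FeA, and 6.73 and 6.70 in FeO. The channels of the pools did not overlap. The Cd27 ratio was 0.68 ± 0.39 in FeD and -0.74 ± 0.14 in FeO, and in FeD it came to 0.96 on array 1 but 0.41 on array 2.

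The coreceptor genes of the main T-cell lineages differed. Cd8a, for the alpha chain of the coreceptor of cytotoxic T cells, read 7.24 and 7.30 in FeD, 6.61 to 6.79 in FeA, and 6.38 and 6.33 in FeO, with ratios of 0.52 ± 0.10 and -0.27 ± 0.02. Its FeO channel was well above background on 1 of the 2 arrays. Cd8b, for the partner chain, had ratios of 0.17 ± 0.03 in FeD and 0.03 ± 0.06 in FeO, the latter with opposite signs on the arrays. Cd4, the coreceptor gene of helper T cells and of rat macrophages, had no settled direction. Its ratios on array 1 and array 2 were -0.11 and 0.35 in FeD and -0.24 and 0.41 in FeO.

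The remaining T-cell members gave small or partly measured differences. Cd5, a surface inhibitor of receptor signalling, had ratios of 0.43 ± 0.37 in FeD and -0.40 ± 0.09 in FeO, where the FeO pool was well above background on 1 of the 2 arrays. The adhesion receptor gene Cd2 (0.24 ± 0.02 in FeD) and the interleukin 7 receptor gene Il7r (0.14 ± 0.18 from the 1 of its 2 probes that entered) cleared background in FeA RNA on 1 of the 2 arrays only, and neither entered the FeO comparison. The 2 probes of Ctla4, an inhibitory receptor of activated and regulatory T cells, gave -0.07 and 0.02 in FeD and -0.01 and -0.14 in FeO. Of the 15 T-cell members, 14 entered in FeD with a median of 0.43 and 4 called higher. In FeO, 12 entered with a median of -0.38 and 3 called lower, and the median over all 15 on the array was -0.27.

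Fewer B-cell members could be measured. Cd79b, the signalling partner of the B-cell receptor, had channel levels of 9.31 and 9.67 in FeD, 8.42 to 8.80 in FeA, and 7.42 and 7.91 in FeO. The channels did not overlap, although the arrays of each comparison lay apart. Its ratio was 0.96 ± 0.41 in FeD (1.95-fold higher) and -0.97 ± 0.57 in FeO (1.96-fold lower). Pax5, the transcription factor that holds B-cell identity, did not follow Cd79b. Its ratios were 0.20 ± 0.18 in FeD and 0.15 ± 0.02 in FeO, and its FeA channels spread from 8.57 to 9.50.

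The other B-cell members were dim. Ms4a1, which encodes CD20, had a ratio of 0.31 ± 0.16 in FeD, and the tetraspanin gene Cd37 had 0.43 ± 0.21, with the FeA pool well above background on 1 of the 2 arrays for each. The kinase genes Blk and Btk, whose products act downstream of the B-cell receptor, entered through the FeD pool alone. FeA was not well above background for them and the ratios of both had opposite signs on the arrays, so no direction or fold is given. None of these 4 genes entered the FeO comparison. The median over the 6 B-cell members that entered in FeD was 0.26, and over all 7 on the array it was 0.20. In FeO only Cd79b and Pax5 entered, and the median over all 7 was -0.10.

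The pan-leukocyte members were brighter and all 10 entered both comparisons. Coro1a encodes coronin 1A, an actin regulator of white blood cells. Its channel levels were 12.30 on both arrays in FeD, 11.31 to 11.49 in FeA, and 10.39 and 10.22 in FeO, so the pools were separated by more than any spread within them. The Coro1a ratio was 0.95 ± 0.05 in FeD (1.93-fold higher) and -1.12 ± 0.03 in FeO (2.17-fold lower). Coro1a and Cd3g were the only members beyond 2-fold in either comparison, both in FeO, where 0.462% of all genes were called 2-fold lower. In FeD no member reached 2-fold, which 0.114% of all genes passed upward and 0.241% downward. A log2 ratio of 2, the size used in the study's methods, was reached by no member in either comparison. Of all genes, 0.0191% were past it upward and 0.0762% downward in FeD, and 0.0608% upward and 0.109% downward in FeO. In FeO 0.614% of all genes were 2-fold higher, none of them a member.

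The genes of the CD45 complex were measured by 3 probes. Ptprcap, a small transmembrane partner of CD45, had channel levels of 9.50 and 9.57 in FeD, 8.58 to 8.86 in FeA, and 7.58 and 7.83 in FeO. These did not overlap, with ratios of 0.82 ± 0.24 in FeD and -0.94 ± 0.24 in FeO. Ptprc, which encodes the phosphatase CD45 itself, has 2 probes that differed in size. The brighter one gave 0.82 ± 0.03 in FeD and -0.74 ± 0.04 in FeO, and the dimmer one gave 0.49 ± 0.03 and -0.11 ± 0.05. Their mean was 0.65 in FeD, called higher, and -0.43 in FeO, not called.

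Other membrane proteins of leukocytes were measured by 1 probe each. Cd53, a tetraspanin gene, had channel levels of 9.89 and 9.47 in FeD, 8.77 to 9.14 in FeA, and 8.38 and 7.85 in FeO. The channels of the pools did not overlap, but the arrays differed, with FeD ratios of 1.12 and 0.33 and FeO ratios of -0.45 and -1.09. Cd52, which encodes a small glycoprotein abundant on lymphocytes, had channel levels of 7.93 and 7.66 in FeD, 6.91 to 7.28 in FeA, and 7.14 and 6.86 in FeO. It was called higher in FeD at 0.70 ± 0.07, whereas its FeO channels overlapped those of FeA and its FeO ratio was -0.11 ± 0.16. Laptm5, a lysosomal protein gene of blood cells, had ratios of 0.55 ± 0.06 and -0.48 ± 0.12, both short of 1.5-fold.

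Regulators of the actin cortex differed among themselves. Lcp1, the leukocyte actin-bundling protein gene, had ratios of 0.10 in FeD, the same on both arrays to 2 decimals, and -0.58 ± 0.09 in FeO, just short of 1.5-fold. Lsp1, an actin-binding protein gene, had ratios of 0.57 ± 0.40 in FeD and -0.37 ± 0.37 in FeO. The small GTPase gene Rac2 had ratios of 0.58 ± 0.36 in FeD and -0.45 ± 0.56 in FeO. On array 1 of the FeO comparison its spot was dim in both channels, at 6.91 in FeO and 6.97 in FeA, against FeA levels of 10.49 to 10.86 on the other 3 arrays, and the ratio on that array was -0.05. Ikzf1, the transcription factor Ikaros of lymphoid development, stayed near FeA at 0.03 ± 0.01 in FeD and 0.08 ± 0.09 in FeO. The median over the pan-leukocyte members was 0.62 in FeD and -0.47 in FeO.

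**Figure D2:**
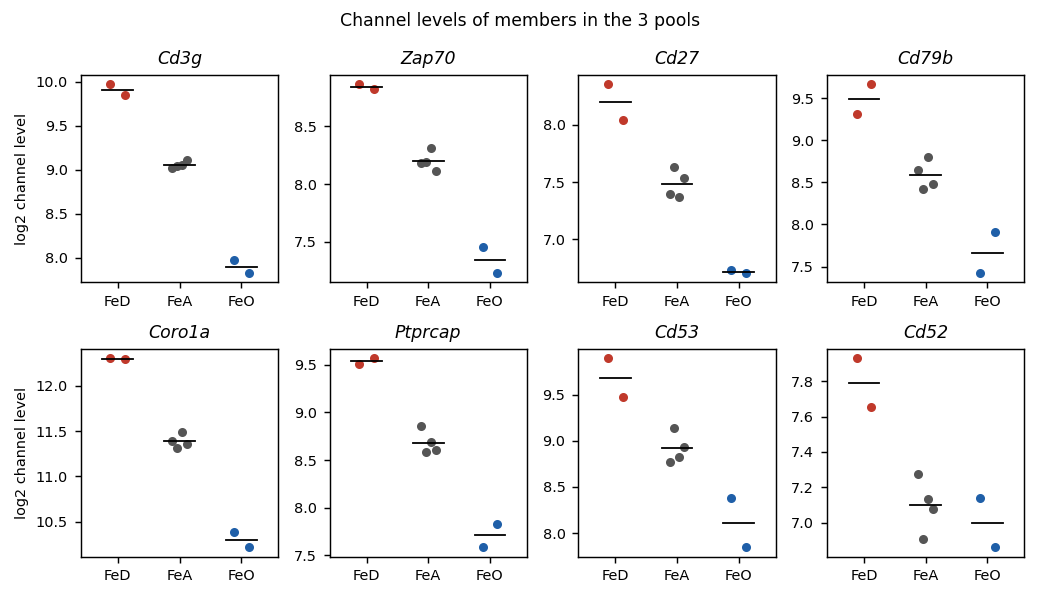
Log2 channel levels of 8 members in the FeD (2 channels), FeA (4 channels) and FeO (2 channels) pools, with a line at the mean; each panel has its own vertical axis, and points of a pool are repeat measurements of the same RNA. Cd3g, Zap70, Cd27, Cd79b, Coro1a, Ptprcap and Cd53 show FeD above and FeO below all FeA channels, while the FeO channels of Cd52 overlap those of FeA. Some members called in neither comparison, among them Cd5, Cd8a, Laptm5 and Lck (not shown), were separated in the same way. For others, among them Cd3d, Lcp1 and Pax5, FeA channels overlapped those of another pool. The share of all genes separated in this way is not given.

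For the members called in both comparisons, the sequence before the start site is shown where a reference promoter was at hand. RefSeq promoter sequences (build GRCr8) were matched by symbol for 22 of the 32 members, 5 of them called in both comparisons. The 250 bases before the start are printed in the direction of transcription, with AGGAAG or its reverse complement CTTCCT, a short form of the site of ETS family factors, in capitals.
Cd3g, chr8:54183919-54184168, minus strand: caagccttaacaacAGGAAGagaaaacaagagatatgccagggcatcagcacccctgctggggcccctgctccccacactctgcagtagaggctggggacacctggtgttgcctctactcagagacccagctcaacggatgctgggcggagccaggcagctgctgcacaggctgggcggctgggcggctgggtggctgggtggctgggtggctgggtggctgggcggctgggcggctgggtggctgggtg
Zap70, chr9:46485355-46485604, plus strand: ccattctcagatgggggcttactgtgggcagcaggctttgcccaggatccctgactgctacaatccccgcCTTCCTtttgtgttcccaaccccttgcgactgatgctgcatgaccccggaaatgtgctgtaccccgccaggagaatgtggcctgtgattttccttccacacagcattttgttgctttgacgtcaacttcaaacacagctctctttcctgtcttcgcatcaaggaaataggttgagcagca
Cd27, chr4:159721824-159722073, minus strand: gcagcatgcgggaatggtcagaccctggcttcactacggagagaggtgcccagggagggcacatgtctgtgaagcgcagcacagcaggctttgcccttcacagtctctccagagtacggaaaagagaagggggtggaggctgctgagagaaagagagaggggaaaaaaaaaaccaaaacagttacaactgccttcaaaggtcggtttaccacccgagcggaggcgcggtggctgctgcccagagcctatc
Coro1a, chr1:190731104-190731353, minus strand: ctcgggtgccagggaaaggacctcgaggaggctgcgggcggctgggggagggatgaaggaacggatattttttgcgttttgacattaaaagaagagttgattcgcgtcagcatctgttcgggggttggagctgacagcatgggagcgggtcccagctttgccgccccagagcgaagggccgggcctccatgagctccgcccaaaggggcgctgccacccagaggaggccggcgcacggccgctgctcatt
Cd53, chr2:197087897-197088146, minus strand: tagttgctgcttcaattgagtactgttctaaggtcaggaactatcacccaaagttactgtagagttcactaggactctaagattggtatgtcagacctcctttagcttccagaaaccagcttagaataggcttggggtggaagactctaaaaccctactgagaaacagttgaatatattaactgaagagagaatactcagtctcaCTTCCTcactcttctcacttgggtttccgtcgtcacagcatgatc
The motif occurs once in the windows of Cd3g, Zap70 and Cd53 and not in those of Cd27 and Coro1a. The Cd3g start lies 1601 bases from that of Cd3d, which is transcribed the other way. The motif AGGAAG was found on either strand in this window for 15 of the 22 members (68.2%), counting a gene with 2 start sites once, and in 29.5% of 33469 promoters. Of the other 9 motifs searched, ACTTCC and GAGGAAG overlap AGGAAG, and were held by 10 and 5 members against 19.2% and 10.2% of promoters. Among the rest, the RUNX motif TGTGGT was found for 5 members (22.7%) against 14.5% of promoters, and the Ikaros motif TGGGAA for 8 members (36.4%) against 22.1%. The E-box form CAGCTG was found for 6 members (27.3%) against 11.97% of promoters, and the form CAGATG for 3 (13.6%) against 14.0%. The RUNX variant TGCGGT was found for 1 member (4.55%) against 5.02%, the TATA form TATAAA for 2 (9.09%) against 12.9%, and the octamer ATGCAAAT for 0 against 1.56%. The AGGAAG windows include members that were not called in either comparison, such as Ctla4, Ikzf1 and Il7r. These matches describe letters in a window, are not sites shown to be bound, and were chosen after the ratios were known.

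Further genes of the same cell types, none of them members, were read from lists that were also chosen with earlier results known. Of 25 other T-cell genes on the array, 14 entered in FeD with a median of 0.38, and 2 were called higher, Cd247 (the CD3 zeta chain, 1.00) and Tcf7 (a T-cell transcription factor, 0.66). In FeO 14 entered with a median of -0.34, and 3 were called lower, among them Cd247 (-0.89) and the T-cell kinase gene Txk (-0.61). Over all 25 on the array the medians were 0.22 and -0.12. No gene of this list was called the other way in either comparison.

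Other B-cell genes gave a similar number of calls. In FeD, 3 of 16 were called higher, among them Fcrla (0.72) and Pou2af1 (0.62), with a median of 0.33. In FeO, 2 of 13 were called lower, among them the transcription factor gene Spib (-0.84), with a median of -0.18. Over all 19 on the array the medians were 0.28 and -0.12. Of the other pan-leukocyte genes, 2 of 27 were called higher in FeD, the chemokine receptor gene Cxcr4 (0.80) and Gmfg (0.78), and 1 of 24 was called lower in FeO, Arhgdib (-0.82). Their medians were 0.39 and -0.14, and over all 31 on the array they were 0.30 and -0.10. Of all genes that entered, 1.08% were called higher in FeD and 1.34% lower in FeO.

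Genes of other cell types moved beside the members. Of 9 genes of lymph node vessels, stroma and lymphoid chemokines on the array, 8 entered both comparisons, with medians of 0.72 in FeD (6 called higher) and -0.64 in FeO (5 called lower and 1 higher). Their summed linear level, taken here and below over the genes well above background in at least 4 of the 8 channels, was 11256 to 11328 in FeD channels, 6143 to 6413 in FeA and 3327 to 3512 in FeO, with Chst4 not well above background in any channel. Glycam1, a mucin of the high endothelial venules through which lymphocytes enter lymph nodes, had ratios of 1.15 in FeD and -2.75 in FeO. The ratios of Ccl19, a chemokine that draws T cells into lymphoid tissue, were 0.86 in FeD and -0.98 in FeO. Cxcl13, the chemokine that draws B cells into follicles, was called higher in both pools, at 0.62 and 0.98. The part of lymph node tissue in the members' values was not tested.

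The medians of other leukocyte lists did not share the pattern of both comparisons at the size seen for the members. The natural killer and cytotoxic list had medians of 0.10 and -0.01 with 0 of 6 called in either comparison, and Klrd1, Klrb1b, Ncr1 and Cd244 were not well above background in any channel. So few genes were called on the whole array that 0 of 6 says little. At any size, 5 of the 6 were higher and 1 lower on both arrays in FeD, and 0 were higher and 2 lower in FeO. The macrophage list had a median of 0.41 in FeD (3 of 15 called higher) and 0.28 in FeO (5 called higher, among them Cd163 at 0.95, and 1 lower, Marco at -0.93). Its summed level was 25003 to 27351 in FeD, 12201 to 18644 in FeA and 14057 to 19097 in FeO, with Mrc1 not well above background in any channel. The mast cell list had medians of 0.09 in FeD and 1.00 in FeO, where 5 of 6 were called higher. Among the 5 mast cell genes well above background in both pools in FeO, 4 were called higher. Its summed level was 751 to 891 in FeD, 690 to 866 in FeA and 1689 to 1752 in FeO, with Ms4a2 not well above background. For neutrophil genes 2 and 4 entered, with medians of 0.02 and -0.17, and none was called. On both arrays 1 of them was higher and 1 lower in FeD, and 1 was higher and 3 lower in FeO.

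Non-immune lists differed between the pools as well. The intestinal epithelial list had medians of -1.37 in FeD (11 of 13 called lower) and -1.70 in FeO (10 of 13 called lower). In each comparison 7 of these genes were well above background in both pools, of which 5 were called lower, with medians of -1.37 and -1.74. The others entered through 1 pool alone, and where that was FeA the filter favoured a lower ratio. Summed levels of the list were 2732 to 3171, 6791 to 6963 and 2399 to 2590 in FeD, FeA and FeO, with Mep1a not well above background in any channel. The adipocyte list had medians of -0.02 in FeD, where 0 of 11 were called, and 1.32 in FeO, where 8 of 11 were called higher, with summed levels of 10610 to 11952, 11373 to 14106 and 41801 to 43235. The acinar list had medians of -0.02 and -0.28 and the islet list -0.22 and -0.77, with 4 islet genes called lower and 1, the glucagon gene Gcg (1.14), called higher in FeO. The red cell list stood at 0.61 in FeD, where 3 of 5 were called higher, among them Alas2 (1.24) and Slc4a1 (1.09), and at 0.38 in FeO, where 0 were called. The endothelial list stood at 0.23 in FeD, with 0 of 7 called, and 0.39 in FeO, with 1 called higher. The pools thus differed in markers of several cell types, and the part of these differences in the members' ratios was not tested.

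**Figure D3:**
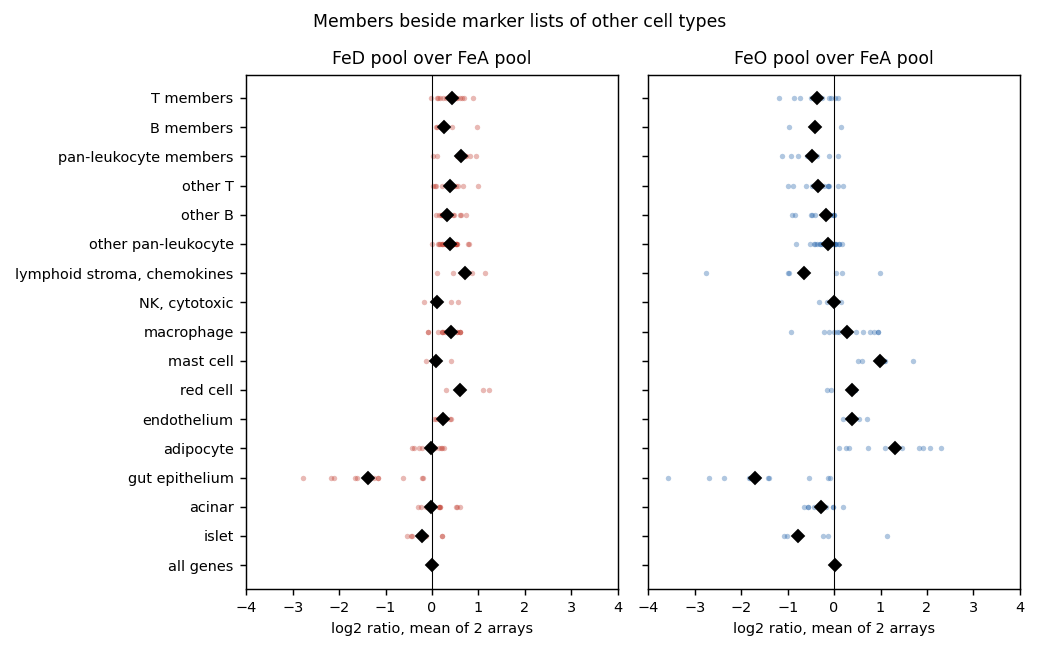
Mean log2 ratio over the FeA pool of each gene that entered (circles) and the median (diamonds) for the members and for marker lists of other cell types, FeD on the left and FeO on the right; all genes are shown by their median alone. The lymphoid stroma list has medians of 0.72 and -0.64, the adipocyte list stands at 1.32 in FeO, and the intestinal epithelial list is below zero in both.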

How the data were processed

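Each array compared 2 pools of total RNA from pancreas. The authors scanned the arrays with Agilent Feature Extraction 10.1.1.1, per the labels, and deposited the spot intensity of every probe with its local background; the settings used to make it stand in the file headers, and the array was designed on rat build rn4. The median signals were used here, as the files held no mean signals. The authors also deposited, for each diet, a table of log2 fold changes, p-values and q-values of their own comparison. Only the gene symbols of those tables were read, and their values were not used.

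Background was corrected by the normexp method of limma 3.58.1 in R 4.3.3 with an offset of 50, which draws ratios of dim spots towards zero. Arrays were normalized by loess with control spots weighted 0, and spots flagged as outliers (722 to 938 per array) were left out. Ratios were turned to diet over FeA, on the log2 scale. Spots of a probe were averaged, and a gene's value is the mean over its probes that entered. Channel levels were further scaled between arrays (Aquantile). Well above background is the flag of the scanner software, required for over 50% of a probe's spots. Symbols came from the deposited tables for 19183 probes, from RefSeq accessions (GRCr8) for 3766 and from the array for 7418. Figures and summaries were made with Python 3.11.15, pandas 2.3.3 and matplotlib 3.10.9. The steps were tested on simulated spots with changes of 2-fold or a log2 ratio of 2, placed outside the dimmest probes. That test does not cover 1.5-fold differences or the dimmest probes, and its outcome is not reported here. The number of arrays limits the precision.

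The members, the gene lists and the tests were chosen with earlier results of these data known. Members were described singly where they were called, where their probes differed in sign, or where directions differed between comparisons, and the rest more briefly by role. Genes of other lists were named where called, at most 4 per list and comparison, and some are not reported here. Promoters were taken from a RefSeq table, and the motifs and the promoters printed were chosen after the ratios were seen. A limma fit and the methods' t-test over the 2 arrays of a comparison measure technical error between the same pools, and were used as alternatives only.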

Additional observations from a re-analysis of the deposited data

How the results depend on the processing

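No member's called direction reversed under the 10 processing alternatives, but several of them could not have reversed one. A call needs the same sign on both arrays, so leaving out an array could not do so. Scaling between arrays left the ratios unchanged, and the filter and probe choices cannot change the ratio of a gene with 1 probe. A reversal could have come from the changes of background, offset, signal type or centring. The median of all genes stayed within 0.03 of zero throughout. The T-cell median in FeD was 0.61 with a normexp offset of 0 and 0.72 with the scanner's processed signals, and lay between 0.30 and 0.41 on the single arrays. The B-cell median in FeD was 0.22 without background subtraction, 0.45 with offset 0, 0.95 with processed signals, 0.58 where both pools had to be well above background, 0.20 without a filter, and 0.26 to 0.31 on the single arrays. The pan-leukocyte median in FeD was 0.68 with offset 0, 0.71 with processed signals and 0.58 with median centring. In FeO the T-cell median was -0.59 with offset 0, -1.005 with processed signals and -0.27 without a filter, the B-cell median was -0.10 without a filter, and the pan-leukocyte median was -0.56 with offset 0 and -0.61 with processed signals.

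The number of members called higher in FeD was 21 with processed signals and 0 at 2-fold or at the methods' log2 ratio of 2. It was 11 and 12 when array 1 or array 2 was left out, which lost Cd27 and Cd53, or Lat. The number called lower in FeO was 12 with offset 0, 14 with processed signals, 2 at 2-fold and 0 at a log2 ratio of 2. It was 7 and 9 without array 1 or array 2, which lost Cd79b or Cd53. Leaving out background subtraction lost Lat in FeD and Cd27 in FeO, and median centring lost Cd53 in FeD.

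Tests over the 2 arrays speak to technical error between these pools only. The methods' t-test at its threshold alone called 11 members in FeD and 9 in FeO, where it called 6.21% and 7.94% of all probes, and 0 members in each after Benjamini-Hochberg adjustment. An unadjusted limma test, added after seeing the data, called 18 and 13 members and 5.97% and 8.82% of all probes. After adjustment it called 1 member in FeD (Coro1a) and 2 in FeO (Cd3g and Coro1a), where it called 0.434% and 0.901% of all probes. No paired analysis was possible because each diet is 1 pool, measured again on the dye-swapped array. The offset of 50 and the brightness over background limit what can be said of Cd3e, Cd5 and Cd8a in FeO, where processed signals gave -1.595, -1.50 and -1.46, and of Cd2, Il7r, Ms4a1, Cd37, Blk and Btk.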
